A study of Mus musculus with 8 samples.

Results

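The tripartite motif (Trim) genes encode a large family of proteins that usually carry a RING finger, B-box zinc fingers and a coiled coil, followed by a variable C-terminal part. The RING finger makes many of them ubiquitin ligases, and the C-terminal part, often a PRY-SPRY domain, contacts the target. Family members are known for restricting viruses and tuning interferon and NF-kB signalling, and a few, such as Trim10 and Trim58, are known for roles in maturing red cells. Every probe set whose symbol holds Trim followed by a digit was taken, which gave 60 Trim genes of 19324 annotated genes, measured by 116 of the 45101 probe sets on the array. No probe set carried the symbol Trim58, so Trim58 was not analysed here.

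The tested animals were Nix null mice (Nix-/-), called Nix_KO here, and the controls were wild type (WT) mice, all at 8 weeks of age and otherwise untreated. Nix, encoded by Bnip3l, is a mitochondrial outer membrane protein known for its part in removing mitochondria from reticulocytes. Whole spleens were profiled one per array on Affymetrix mouse arrays, with arrays Nix_KO 10, 2, 3 and 6 and arrays WT 3, 4, 5 and 6. The strain of the mice and the deleted part of the gene are not given in the sources used here. All values below are log2 of the deposited intensity of a probe set, a group of short probes for a transcript, and a value of one probe set is not set against that of another.

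The 3 probe sets of Bnip3l, which lies on chromosome 14, are annotated jointly with its pseudogene, and their differences between Nix_KO and WT were 0.43 ± 0.21, -0.50 ± 0.25 and 0.58 ± 0.26 (log2, SE; limma adjusted p = 0.158, 0.164 and 0.117), so they did not check the genotype labels. In Nix_KO spleens all 11 tested erythroid marker genes were higher and all 10 tested B cell marker genes were lower, with summed intensities of 111000 to 142000 in Nix_KO and 25800 to 61800 in WT for the erythroid list and of 15100 to 27000 in Nix_KO and 47500 to 57600 in WT for the B cell list. Genes of several other marker lists also moved all or mostly together, but of 11 tested macrophage and monocyte genes 3 were lower and none higher. All 9 tested neutrophil genes were higher, and all 5 NK cell genes, all 7 stroma and endothelium genes, 5 of 6 dendritic cell genes and 7 of 9 T cell genes were lower, against 14.2% higher and 24.1% lower of all genes. In whole spleens, fewer cells of a type and less RNA per cell cannot be told apart. Arrays Nix_KO 3, WT 3 and WT 5 stood apart by their signal for pancreatic enzymes: the mean log2 intensity of 10 pancreatic genes was 5.27, 6.22, 13.15 and 5.75 in Nix_KO 10, 2, 3 and 6, and 12.17, 7.52, 10.14 and 5.97 in WT 3, 4, 5 and 6. The counts for the family and for its chromosome 7 cluster are therefore also given without these 3 arrays.

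Only probe sets that reached a log2 intensity of 5 in 4 or more of the 8 arrays entered the test. Of the 116 Trim probe sets 67 were tested, covering 38 of the 60 genes, and 56 of those 67 reached 5 in every array. Of the other 49, 43 were under 5 in every array and 6 reached 5 in 1 to 3 arrays. Group means of these 49 ran from 1.92 to 5.29 in Nix_KO and from 1.88 to 5.4 in WT. No probe set was tested for 22 Trim genes. By the limma fit over all 22347 tested probe sets, with a Benjamini-Hochberg adjusted p under 0.05, 8 Trim probe sets were higher in Nix_KO (11.9%), 19 were lower (28.4%) and 40 did not pass. Over all tested probe sets 12.5% were higher, 17.6% were lower and 30% passed in either direction. The median log2 change was -0.15 over the Trim probe sets and -0.12 over all tested probe sets.

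Of the 67 tested Trim probe sets 27 had Nix_KO and WT arrays that did not overlap (40.3%, against 34.6% of all tested probe sets). Counting each gene once by its brightest probe set with 1 symbol, 4 of 36 Trim genes were higher (Trim10, Trim59, Trim23 and Trim37) and 15 were lower, beside 14.2% higher and 24.1% lower (38.3% in either direction) of all 11027 genes. Without the 3 arrays with pancreatic signal, 1 Trim probe set was higher and 3 were lower, while 500 and 190 of all probe sets were. Of the 27 calls 4 were kept in that reduced fit, those of Trim10, Trim7, Trim30a and the probe set shared by Trim30d and Trim30a.

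**Figure D1:**
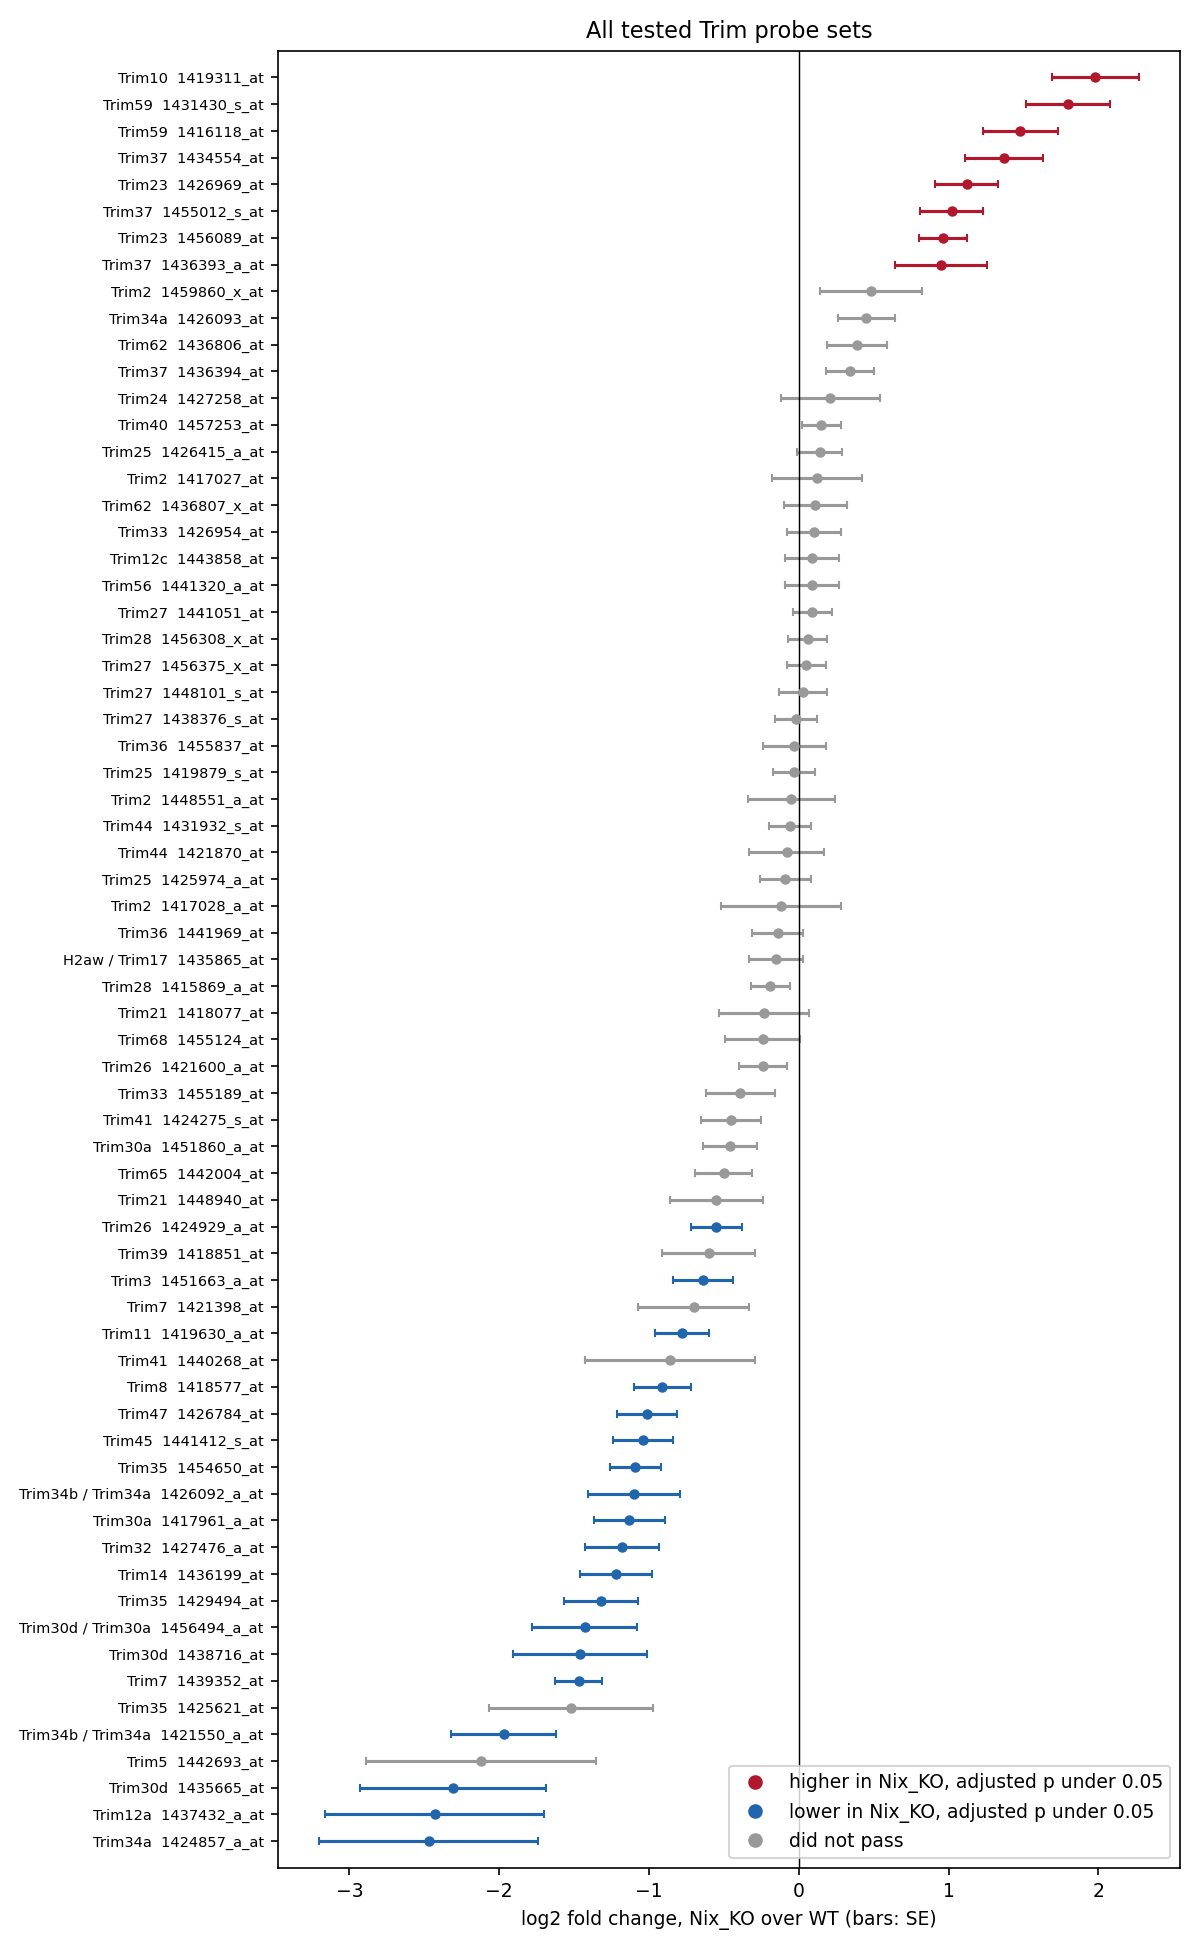
Log2 fold change of Nix_KO over WT (horizontal axis, bars are SE, 4 arrays per group) for the 67 tested Trim probe sets, ordered by size, with red for probe sets past an adjusted p of 0.05 that were higher in Nix_KO and blue for those that were lower. Trim10 stands at the top with 1.98, and the bottom 5 places are held by probe sets of Trim34a, Trim12a, Trim30d, Trim5 and the Trim34b and Trim34a pair, with changes from -2.47 to -1.97.

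Trim10, known in the mouse as a RING finger protein of the erythroid lineage, was 3.93-fold higher in Nix_KO spleens. Its log2 intensity was 12.23, 12.64, 12.86 and 13.22 in Nix_KO 10, 2, 3 and 6, against 11.25, 10.79, 10.98 and 10.03 in WT 3, 4, 5 and 6. Every Nix_KO array was above every WT array, and WT 6 was the lowest of the WT arrays. The log2 change was 1.98 ± 0.29 (SE, n = 4 arrays per group; limma adjusted p = 0.00306), it passed whichever single array was left out, and it was 2.29 (limma adjusted p = 0.0486) without the 3 arrays with pancreatic signal.

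The erythroid and neutrophil marker lists were also higher in every Nix_KO array than in every WT array. The erythroid list had mean log2 intensities of 12.32, 12.51, 12.79 and 12.67 in Nix_KO 10, 2, 3 and 6 and of 11.42, 10.88, 10.63 and 9.40 in WT 3, 4, 5 and 6. The neutrophil list had 10.95, 11.60, 10.98 and 10.84 in Nix_KO 10, 2, 3 and 6 and 10.56, 9.97, 8.46 and 7.98 in WT 3, 4, 5 and 6. WT 6 was the lowest array for Trim10 and for both lists. Among the Nix_KO arrays, Nix_KO 6 was the highest for Trim10 and the lowest for the neutrophil list. The erythroid list was highest in Nix_KO 3, and it shared its lowest array, Nix_KO 10, with Trim10. The part of erythroid or neutrophil content in the Trim10 difference was not tested. The probe sets most like Trim10 across the 8 arrays, among tested probe sets with 1 symbol outside the family, were those of Acp1 and Pabpc4 (Pearson r = 0.996 each), Rab3il1 (0.995), Cachd1 and Micall2 (0.994 each), Tusc1 and Stom (0.993 each) and Pip5k1b, Ccnf and Crat (0.992 each). These correlations share the arrays and the Nix_KO against WT difference, and all 10 probe sets were higher in Nix_KO, by 1.24 to 2.1 on the log2 scale. Stom encodes stomatin, a protein of the red cell membrane.

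A stretch of the Trim10 promoter window is shown because it holds a match to AGATAA, a motif bound by GATA factors, here on the opposite strand as the capitals TTATCT. The window runs from 250 bases before to 50 bases after a gene's start in RefSeq (GRCm38.p6), and the stretch is chr17:36869371-36869426 on the plus strand, with the match at positions -163 to -158 from the start.
Trim10: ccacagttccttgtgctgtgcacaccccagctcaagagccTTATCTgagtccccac
On either strand AGATAA occurred in 11.2% of 32851 windows of this length and in 4 of 67 Trim windows, those of Trim10, Trim39, Trim72 and Trim34b. A match is a description of the letters only, and no binding was measured here.

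Trim34a, Trim5, Trim12a, Trim34b, Trim12c, Trim30b, Trim30c, Trim30a and Trim30d follow each other, after Trim6, in the RefSeq order of chromosome 7. They are relatives of human TRIM5 and TRIM34, of which TRIM5 is known for binding the capsids of incoming retroviruses, and mouse Trim30a is known for restraining NF-kB signalling by lowering Tab2 and Tab3. The array had 17 probe sets for these genes, of which 12 were tested. None was higher in Nix_KO, 8 were lower (66.7%, against 17.6% of all tested probe sets) and the median log2 change was -1.44. In 5 of the 12 the groups did not overlap (41.7%, against 34.6% of all tested probe sets). Without the 3 arrays with pancreatic signal 2 cluster probe sets were lower, and without WT 4 or WT 6 alone 3 were. For the 11 tested probe sets of Trim12, Trim30 and Trim34 alone, 8 were lower (72.7%) and the median was -1.43.

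Promoter stretches of 6 of these genes are shown because each holds a match to the core of the interferon-stimulated response element, GAAA followed by any 2 bases and GAAA again. The match is on the opposite strand, so the capitals read TTTC, 2 bases and TTTC. All are from RefSeq (GRCm38.p6) and written along the gene. They are Trim34a, plus strand, chr7:104244427-104244486, and, on the minus strand, Trim5, chr7:104288136-104288195, Trim12a, chr7:104315466-104315525, Trim12c, chr7:104353359-104353418, Trim30a, chr7:104465210-104465269, and Trim30d, chr7:104507871-104507930.
Trim34a: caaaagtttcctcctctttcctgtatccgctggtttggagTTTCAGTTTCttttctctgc
Trim5: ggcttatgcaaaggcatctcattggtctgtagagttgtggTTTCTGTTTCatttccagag
Trim12a: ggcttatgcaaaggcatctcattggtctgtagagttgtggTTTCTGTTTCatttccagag
Trim12c: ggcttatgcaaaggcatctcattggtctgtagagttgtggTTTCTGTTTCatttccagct
Trim30a: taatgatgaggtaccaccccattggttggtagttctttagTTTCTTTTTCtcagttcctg
Trim30d: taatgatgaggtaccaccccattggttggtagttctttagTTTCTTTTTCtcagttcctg
The match shown lies before the annotated start in Trim5, Trim12c, Trim30a and Trim30d and after it in Trim34a and Trim12a. Another window of Trim30a, from a further annotated start, holds a match after that start, at positions 2 to 11. This core occurred on either strand in 3.44% of all 32851 windows, in 7 of 11 windows of the cluster genes (6 of 10 genes) and in 3 of 56 windows of other Trim genes, those of Trim2, Trim21 and Trim26.

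The promoter windows were alike within the Trim5 and Trim12 genes and between Trim30a and Trim30d. The windows of Trim12a and Trim5 were identical over the 241 bases where they align, those of Trim12a and Trim12c at 247 of 261 positions (94.6%) and those of Trim30a and Trim30d at 276 of 294 positions (93.9%). Windows of other pairs aligned only in part, those of Trim12a and Trim30a at 51 of 75 positions (68%). Those of Trim12a and Trim34a aligned at 17 of 21 (81%) and those of Trim34a and Trim34b at 14 of 15 (93.3%). The alignment was local and keeps only the best-matching stretch, so a percentage over so few positions does not show that the windows are alike. Near-identical copies can share probes, and 4 of the 17 cluster probe sets carry more than 1 symbol: a pair for Trim34b with Trim34a, one for Trim30d with Trim30a and one for Gm38525 with Trim30b. With the Trim probe sets of more than 1 symbol left out, 8 Trim probe sets were higher and 16 lower of 63 tested. Which copy gave the signal of any cluster probe set was not tested.

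Trim34a had the largest fall of the family. Its probe set 1424857_a_at read 6.16, 9.23, 10.34 and 9.32 in Nix_KO 10, 2, 3 and 6, against 11.33, 11.28, 10.9 and 11.43 in WT 3, 4, 5 and 6. All Nix_KO arrays were below all WT arrays, but the Nix_KO arrays were spread widely, with Nix_KO 10 far under the rest and Nix_KO 3 nearest to WT. The log2 change was -2.47 ± 0.73 (SE, n = 4 arrays per group; limma adjusted p = 0.0307), 5.55-fold lower in Nix_KO.

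Without Nix_KO 10 the change of this Trim34a probe set was -1.60 (limma adjusted p = 0.00482), a smaller difference with a smaller p. Its call was lost when WT 3, 4, 5 or 6 was left out (limma adjusted p = 0.0613, 0.0719, 0.0622 and 0.0748, with changes of -2.44, -2.46, -2.58 and -2.41). The second Trim34a probe set 1426093_at did not pass in the reported fit, but passed as higher in Nix_KO with array weights (0.63, limma adjusted p = 0.0204). It read 5.98, 5.68, 5.26 and 5.30 in Nix_KO 10, 2, 3 and 6 and 5.06, 4.98, 5.34 and 5.02 in WT 3, 4, 5 and 6, close to the filter level, and differed by 0.45 ± 0.19 (limma adjusted p = 0.102).

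The probe sets annotated to both Trim34b and Trim34a were lower. Probe set 1421550_a_at read 5.31, 6.38, 7.12 and 6.80 in Nix_KO 10, 2, 3 and 6, against 8.37, 8.46, 7.95 and 8.69 in WT 3, 4, 5 and 6. The groups did not overlap, Nix_KO 10 was again lowest, and the change of -1.97 ± 0.35 (limma adjusted p = 0.00476), 3.91-fold lower in Nix_KO, passed whichever single array was left out. Probe set 1426092_a_at, with 4.75 to 5.92 in Nix_KO and 5.65 to 6.74 in WT, overlapped between the groups and changed by -1.10 ± 0.31 (limma adjusted p = 0.0254), a call kept in 3 of 8 single-array omissions and lost without Nix_KO 10, 2 or 3 or WT 4 or 6 (limma adjusted p = 0.0522, 0.0617, 0.0504, 0.0754 and 0.0757).

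Trim12a followed the same arrays. Its probe set 1437432_a_at read 4.28, 7.08, 8.55 and 7.38 in Nix_KO 10, 2, 3 and 6, against 9.17, 9.35, 9.07 and 9.44 in WT 3, 4, 5 and 6. Nix_KO 10 lay under the filter level of 5 and the WT arrays lay within a narrow band above every Nix_KO array. The change was -2.43 ± 0.73 (limma adjusted p = 0.0323), or -2.25 with values under 5 set to 5, and -1.58 (limma adjusted p = 0.00789) without Nix_KO 10. It was lost without Nix_KO 2 or WT 3, 4, 5 or 6 (limma adjusted p = 0.0583, 0.0594, 0.0760, 0.0688 and 0.0777).

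Trim12c, whose promoter window nearly matches that of Trim12a, gave another picture. Its probe set 1443858_at read 10.01, 9.56, 9.34 and 9.54 in Nix_KO 10, 2, 3 and 6 and 9.43, 9.51, 9.36 and 9.80 in WT 3, 4, 5 and 6. The groups overlapped and Nix_KO 10 was the highest array, not the lowest. The difference was 0.09 ± 0.18 (limma adjusted p = 0.744), and -0.05 (limma adjusted p = 0.862) without Nix_KO 10. The further probe sets of Trim12a and Trim12c were not tested, with 4.01 to 4.23 in Nix_KO and 3.89 to 4.37 in WT for Trim12a 1420648_at, and 4.67 to 5.0 in Nix_KO and 4.43 to 6.15 in WT for Trim12c 1445271_at.

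Trim30d was lower by both of its own probe sets. Probe set 1435665_at read 5.03, 7.18, 8.66 and 7.49 in Nix_KO 10, 2, 3 and 6, against 9.23, 9.50, 9.19 and 9.69 in WT 3, 4, 5 and 6. The groups did not overlap, the order of the Nix_KO arrays was that of Trim34a with Nix_KO 10 lowest and Nix_KO 3 highest, and the change was -2.31 ± 0.62 (limma adjusted p = 0.0211), 4.96-fold lower in Nix_KO. Without Nix_KO 10 it was -1.62 (limma adjusted p = 0.00798), and the call was lost without WT 4 or WT 6 (limma adjusted p = 0.0557 and 0.0578).

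The second Trim30d probe set 1438716_at read 4.32, 5.02, 6.66 and 6.0 in Nix_KO 10, 2, 3 and 6 and 7.11, 7.04, 6.4 and 7.28 in WT 3, 4, 5 and 6, so that Nix_KO 3 overlapped WT 5. It changed by -1.46 ± 0.45 (limma adjusted p = 0.0366), a call lost without Nix_KO 10 or 2 or WT 3, 4 or 6 (limma adjusted p = 0.0566, 0.0883, 0.0752, 0.0860 and 0.0948). The probe set shared by Trim30d and Trim30a (1456494_a_at) read 6.85, 6.47, 7.95 and 7.37 in Nix_KO 10, 2, 3 and 6 and 8.80, 8.58, 7.88 and 9.09 in WT 3, 4, 5 and 6. Here too only Nix_KO 3 reached the WT range, and the change of -1.43 ± 0.35 (limma adjusted p = 0.0146) passed in all 8 single-array omissions.

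Trim30a fell by 1 of its 2 own probe sets. Probe set 1417961_a_at read 10.47, 10.33, 11.37 and 10.59 in Nix_KO 10, 2, 3 and 6, against 11.97, 11.73, 11.56 and 12.01 in WT 3, 4, 5 and 6. The groups did not overlap, Nix_KO 2 rather than Nix_KO 10 was lowest, and the change was -1.13 ± 0.24 (limma adjusted p = 0.00787), 2.19-fold lower in Nix_KO and past the threshold whichever single array was left out. Probe set 1451860_a_at, with 9.84 to 10.14 in Nix_KO and 10.04 to 10.69 in WT, differed by -0.46 ± 0.18 (limma adjusted p = 0.0747), and passed without WT 5 (-0.60, limma adjusted p = 0.0309).

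Trim5 read 3.50, 6.67, 7.89 and 6.60 in Nix_KO 10, 2, 3 and 6, against 7.89, 8.75, 7.92 and 8.57 in WT 3, 4, 5 and 6, by its only tested probe set. Nix_KO 3 stood level with WT 3 and WT 5, and the other Nix_KO arrays lay below all WT arrays. The difference of -2.12 ± 0.77 did not pass over all probe sets (limma adjusted p = 0.0638), passed over the 11027 genes (limma adjusted p = 0.0442), and passed without Nix_KO 10 (-1.23, limma adjusted p = 0.0304), without Nix_KO 3 (-2.69, limma adjusted p = 0.0303) and with values under 5 set to 5 (-1.74, limma adjusted p = 0.0291). Both Trim6 probe sets, with 2.02 to 2.38 in Nix_KO and 1.96 to 2.94 in WT, and the Gm38525 and Trim30b probe set, with 3.45 to 3.99 in Nix_KO and 3.96 to 4.98 in WT, were under 5 in every array and were not tested. No probe set carried the symbol Trim30c.

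**Figure D2:**
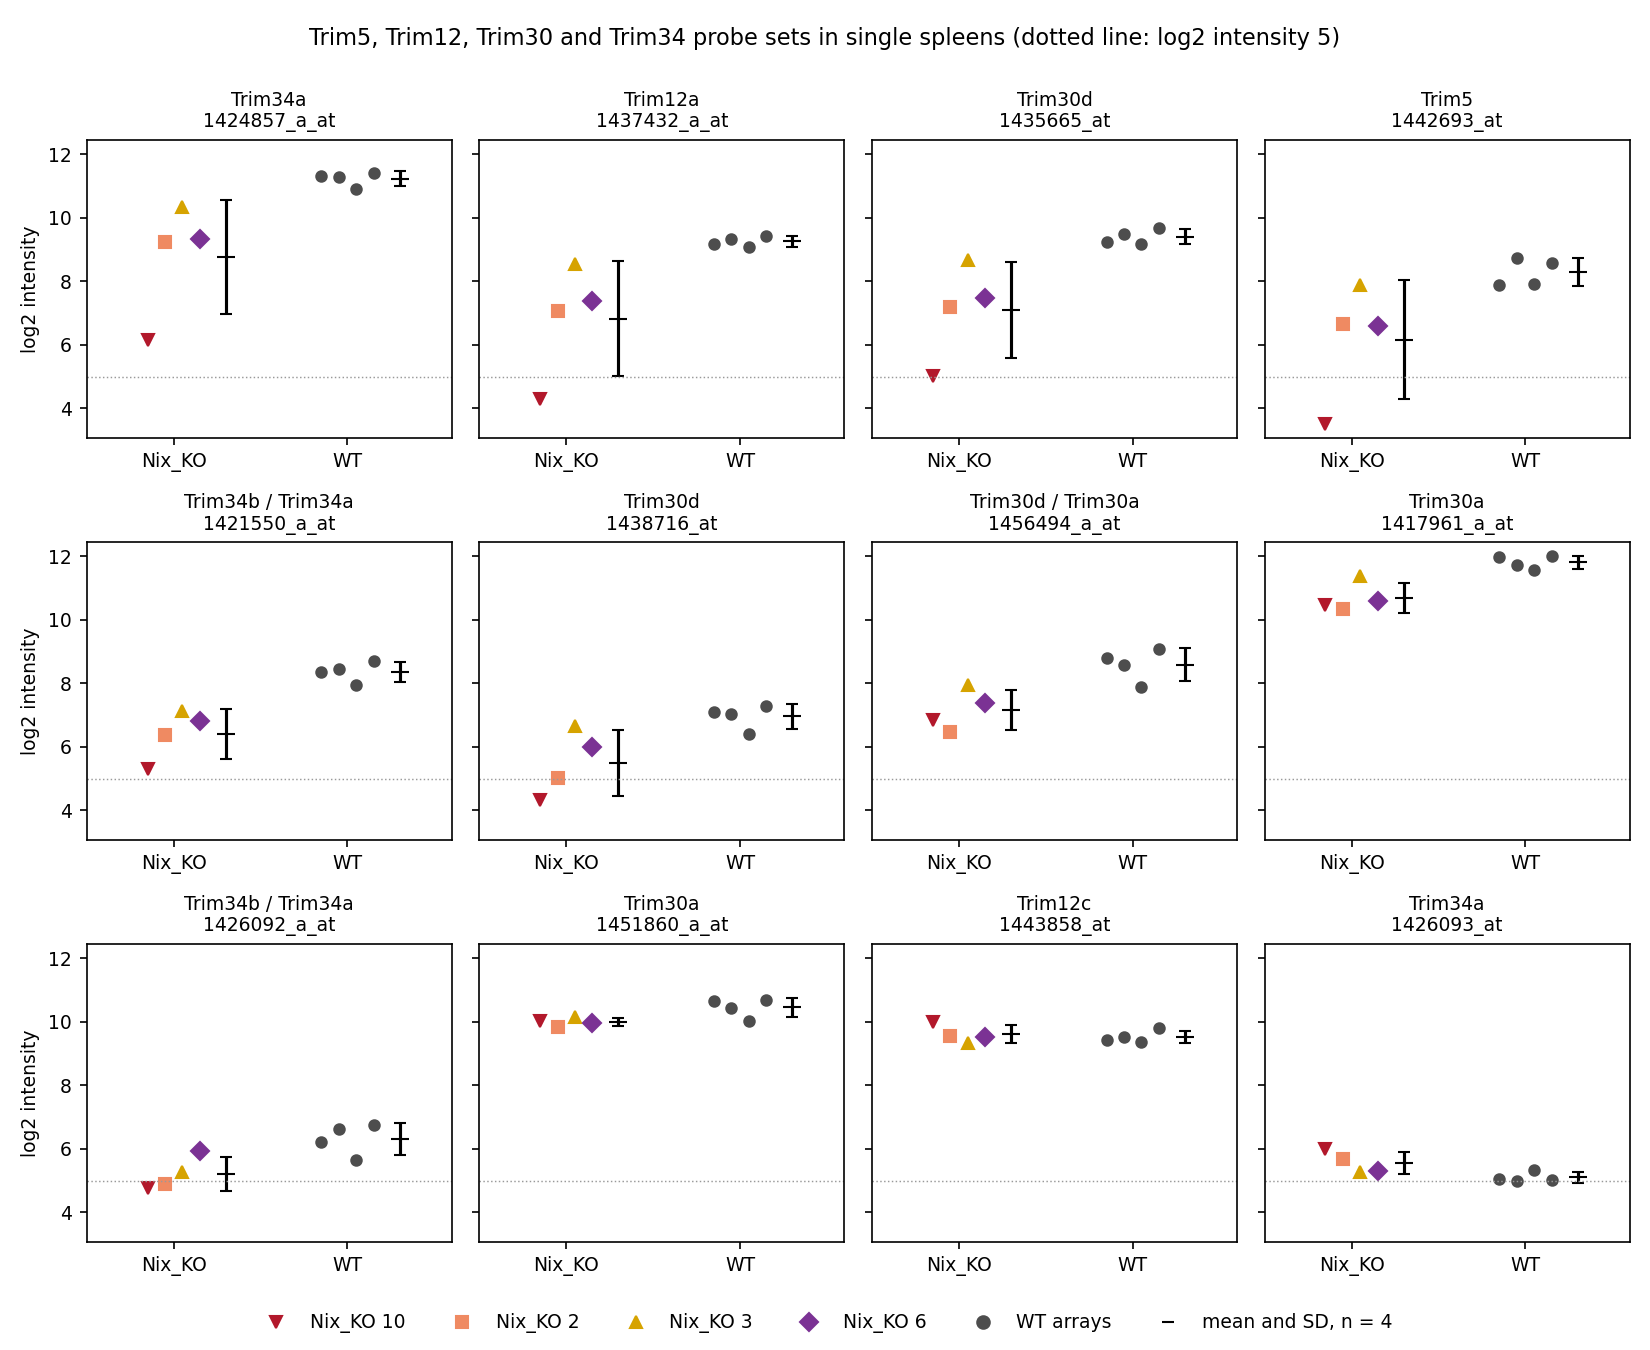
Log2 intensity (vertical axis, the same in every panel) of the 12 tested probe sets of Trim5, Trim12, Trim30 and Trim34 in single spleens, with Nix_KO on the left and WT on the right of each panel, a symbol per Nix_KO array, and bars for the mean and SD of 4 arrays. Nix_KO 10 (red triangles pointing down) lies lowest in the panels of Trim34a 1424857_a_at, Trim12a, both Trim30d probe sets and Trim5, and highest in those of Trim34a 1426093_at and Trim12c.

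The size of these falls differed between the single Nix_KO arrays. Relative to the WT mean, Trim34a (1424857_a_at) stood at -5.08, -2.0, -0.90 and -1.91 in Nix_KO 10, 2, 3 and 6. Trim12a stood at -4.98, -2.18, -0.70 and -1.87, Trim30d (1435665_at) at -4.37, -2.22, -0.74 and -1.91, and Trim5 at -4.78, -1.61, -0.39 and -1.68 in the same arrays. The order was alike for all of them, with Nix_KO 10 the most negative, Nix_KO 3 the least and Nix_KO 2 and 6 close together.

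Nix_KO 10 was the lowest of all 8 arrays in 6 of the 11 tested Trim12, Trim30 and Trim34 probe sets, and in 4.61% of all 22347 tested probe sets. Nix_KO 3 was the highest of the Nix_KO arrays in 8 of 11, and in 18.8% of all. The Nix_KO arrays spanned at least 2 log2 units in 4 of 11 and in 3.97% of all, and Nix_KO 10 lay at least 2 log2 units under the mean of the other 3 Nix_KO arrays in 3 of 11 and in 0.175% of all, 39 probe sets. Ranked by that last difference over all tested probe sets, Trim5 was 6th, Trim34a 7th, Trim12a 10th and Trim30d 25th, with differences of -3.55, -3.48, -3.39 and -2.75.

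Most other probe sets among the 25 with the largest such difference belong to pancreatic enzyme genes such as Clps, Cpa1, Cela3b and Prss2, which were high in Nix_KO 3. Within Nix_KO the pancreatic gene list and the mean of the 11 Trim12, Trim30 and Trim34 probe sets had the same lowest and highest arrays, with 5.27 and 6.65 in Nix_KO 10 and 13.15 and 8.24 in Nix_KO 3. Within WT the pancreatic list was highest in WT 3 (12.17) and lowest in WT 6 (5.97), and the cluster mean was highest in WT 6 (9.08) and lowest in WT 5 (8.49). The part of pancreatic tissue in the cluster's array pattern was not tested. Without the 3 arrays with pancreatic signal, Trim34a changed by -3.12, Trim12a by -3.15 and Trim30d by -3.03, with limma adjusted p = 0.103, 0.0934 and 0.0687. B cell marker genes, lower in Nix_KO as a list, averaged 10.48, 9.69, 9.84 and 10.10 in Nix_KO 10, 2, 3 and 6 and 11.36, 11.65, 11.53 and 11.58 in WT 3, 4, 5 and 6 and were highest within Nix_KO in Nix_KO 10. Macrophage and monocyte markers, 3 of 11 lower and none higher, averaged 10.13, 10.24, 10.14 and 10.94 in Nix_KO 10, 2, 3 and 6. In WT 3, 4, 5 and 6 they averaged 10.88, 11.05, 10.70 and 10.78. The lowest arrays were Nix_KO 10, 3 and 2, which lay close together. The part of B cell or macrophage content in the cluster's array pattern was not tested.

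Of the 10 nearest tested genes on each side of the cluster, 2 of 20 were higher in Nix_KO, 5 were lower and 13 did not pass, shares near the 14.2% higher and 24.1% lower of all genes, with a median of -0.23 against -0.15 over all genes. Before the cluster 2 were higher and 2 lower, and after it 0 were higher and 3 lower by limma, with all 10 changes there between -0.90 and -0.12. The higher ones were Hbb-y, an embryonic beta-like globin (2.40, limma adjusted p = 0.0023), and Rrm1, a subunit of ribonucleotide reductase (1.83, limma adjusted p = 0.00197), and the lower ones were Rhog, Pgap2, Cavin3, Smpd1 and Trim3, from -0.90 to -0.53. The widest span over the Nix_KO arrays among these 20 neighbours was 1.77 log2 units, and in none of them did Nix_KO 10 lie as far under the WT mean as for Trim34a, Trim12a, Trim5 or Trim30d. Trim21 and Trim68, also neighbours, differed by -0.55 and -0.24 and did not pass (limma adjusted p = 0.166 and 0.452 over the 11027 genes).

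**Figure D3:**
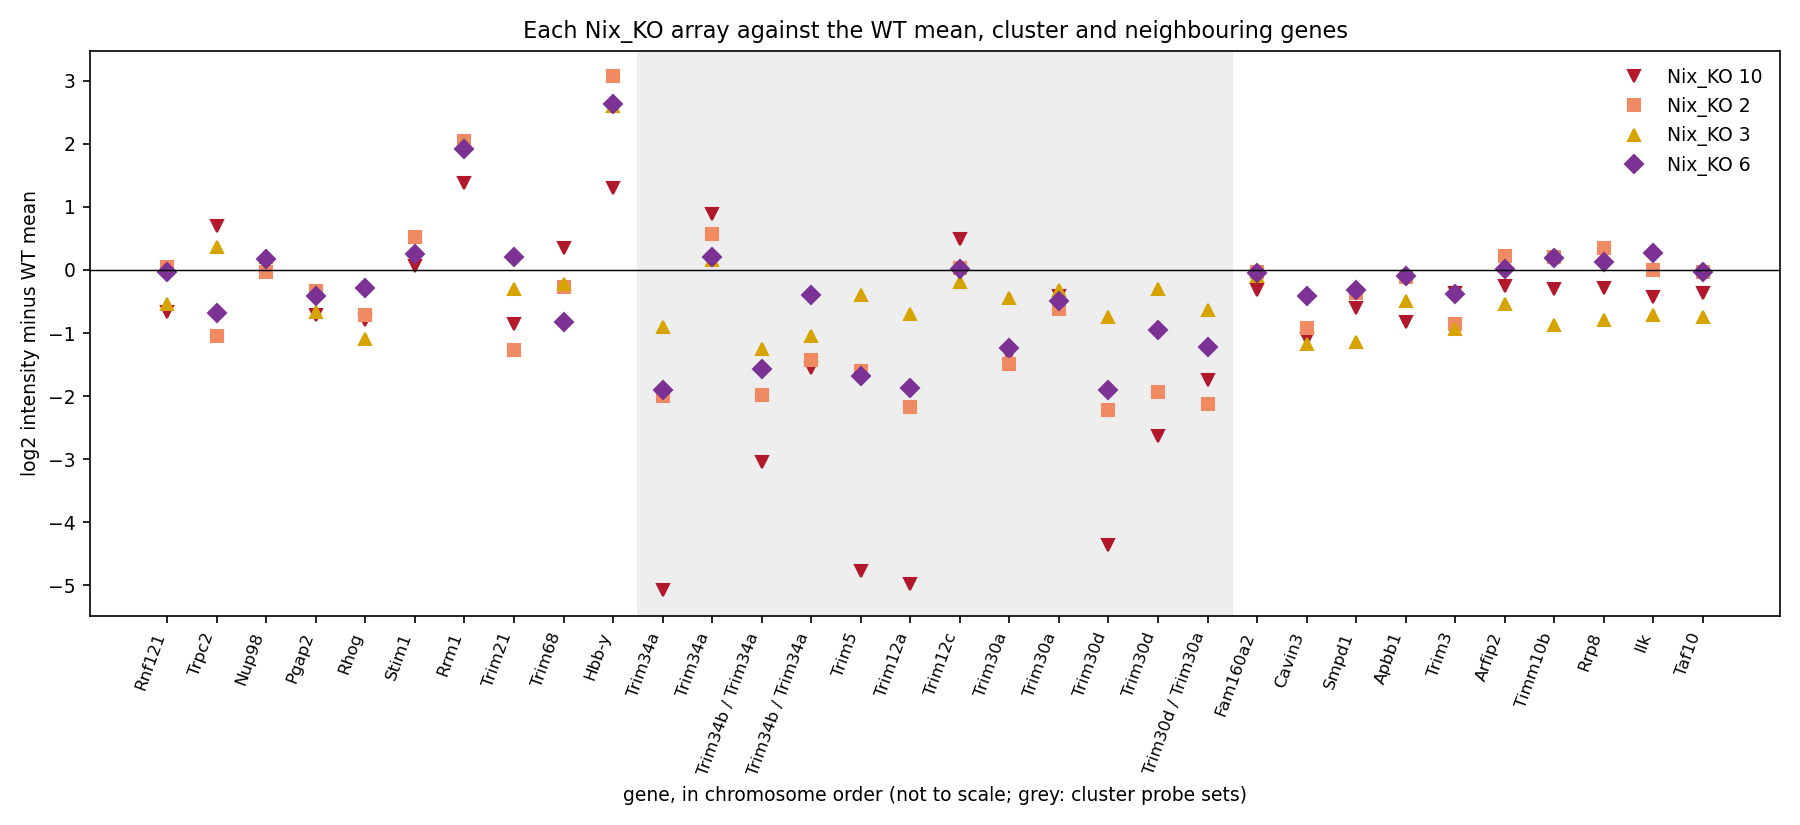
Log2 intensity of each Nix_KO array minus the WT mean (vertical axis) for the 12 tested cluster probe sets (grey) and the 10 nearest tested genes on each side, in chromosome order and not to scale. Nix_KO 10 drops to -5.08 at Trim34a 1424857_a_at, -4.78 at Trim5, -4.98 at Trim12a and -4.37 at Trim30d 1435665_at, and lies above the WT mean at Trim34a 1426093_at (0.88) and Trim12c (0.49). No neighbouring gene lies as low in that array as those 4 probe sets.

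The probe sets most like the mean profile of the 11 Trim12, Trim30 and Trim34 probe sets, outside the family, were those of Zc3h13 (Pearson r = 0.990 over 8 arrays), Micu3 and Ifi209 (0.968 each), Ifi213 (0.964), Nucb2 (0.957), Rnf217 (0.953), Star (0.950), Baiap3 (0.945), Prex2 (0.939) and Hnrnpab (0.938). These correlations share the arrays and the Nix_KO against WT difference. Zc3h13, Prex2 and Hnrnpab did not pass, with changes of -0.15, -0.21 and -0.15 (limma adjusted p = 0.38, 0.264 and 0.385). Zc3h13 read only 6.74 to 7.07 over the 8 arrays. The other listed probe sets were lower in Nix_KO, with log2 changes from -2.42 to -0.59. Of the listed genes only Nucb2 lies on chromosome 7. Ifi209 and Ifi213, members of the interferon-inducible Ifi200 family on chromosome 1, also had wide Nix_KO spreads. Ifi209 read 6.16, 7.96, 9.59 and 9.46 in Nix_KO 10, 2, 3 and 6, against 10.63, 10.43, 10.08 and 10.59 in WT 3, 4, 5 and 6, a change of -2.14 ± 0.65 (limma adjusted p = 0.0342). Ifi213 read 5.80, 5.98, 8.71 and 8.10 in Nix_KO 10, 2, 3 and 6, against 9.78, 9.56, 8.84 and 10.09 in WT 3, 4, 5 and 6, a change of -2.42 ± 0.63 (limma adjusted p = 0.0192). As in the Trim cluster mean, Nix_KO 10 was lowest and Nix_KO 3 highest of the Nix_KO arrays. Both genes were chosen by likeness to that mean, so a shared order is no separate finding.

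Set against each other by array, Trim10 and the cluster went opposite ways between the groups but not within Nix_KO. The mean of the 11 Trim12, Trim30 and Trim34 probe sets was 6.65, 7.42, 8.24 and 7.79 in Nix_KO 10, 2, 3 and 6, against 8.85, 8.86, 8.49 and 9.08 in WT 3, 4, 5 and 6. Among the Nix_KO arrays, Nix_KO 10 was lowest for both the cluster mean and Trim10. Among the WT arrays, WT 6 was highest for the cluster mean and lowest for Trim10.

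**Figure D4:**
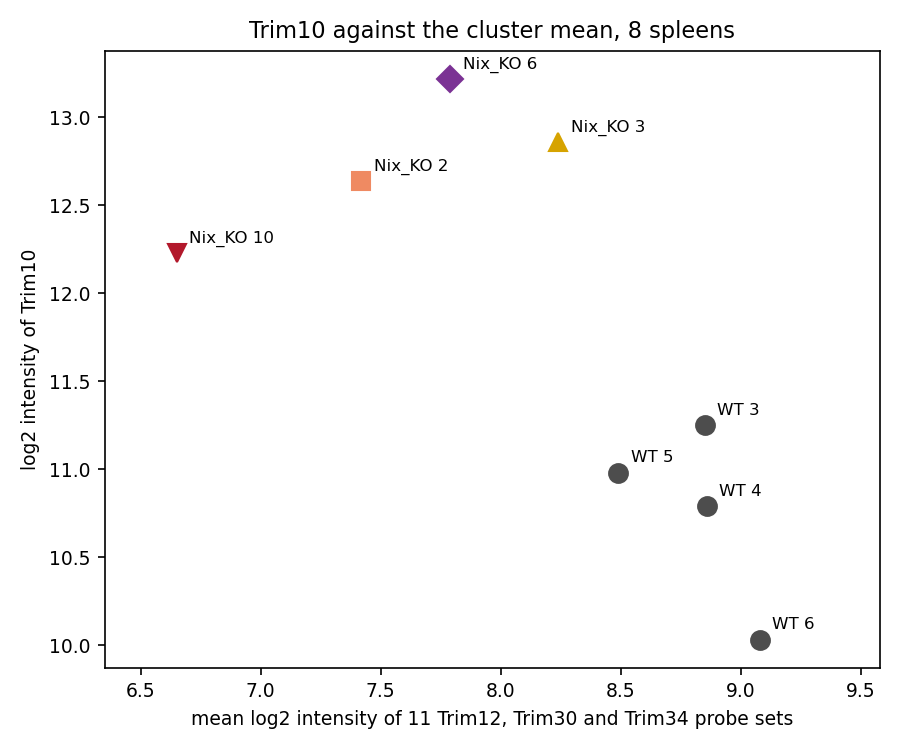
Log2 intensity of Trim10 (vertical axis) against the mean log2 intensity of 11 Trim12, Trim30 and Trim34 probe sets (horizontal axis) in each of 8 spleens, with coloured symbols for Nix_KO and grey circles for WT. The Nix_KO arrays occupy the upper left, with cluster means of 6.65 to 8.24, and the WT arrays the lower right, with 8.49 to 9.08.

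Outside the cluster 55 Trim probe sets were tested, of which 8 were higher (14.5%), 11 were lower (20%) and 36 did not pass, with a median of -0.08. These shares lie close to the 12.5% higher and 17.6% lower of all tested probe sets. The higher calls came from 4 genes of different domain classes. Besides Trim10, a PRY-SPRY protein, they were Trim59, which carries a transmembrane segment, Trim23, which ends in an ARF-like GTPase domain, and Trim37, which carries a MATH domain and is known from peroxisomes and centrosomes.

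Trim59 probe set 1416118_at read 12.47, 12.13, 12.93 and 11.96 in Nix_KO 10, 2, 3 and 6, against 11.20, 11.16, 10.46 and 10.73 in WT 3, 4, 5 and 6. All Nix_KO arrays were above all WT arrays, and the change was 1.48 ± 0.25 (limma adjusted p = 0.00403), 2.80-fold. The second Trim59 probe set, 1431430_s_at, rose by 1.80 ± 0.28 (limma adjusted p = 0.00332), 3.48-fold, also with no overlap.

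Trim23 probe set 1426969_at read 7.86, 8.73, 8.56 and 7.97 in Nix_KO 10, 2, 3 and 6, against 7.30, 7.12, 7.02 and 7.22 in WT 3, 4, 5 and 6. The WT arrays were tightly grouped below every Nix_KO array, and the change was 1.12 ± 0.21 (limma adjusted p = 0.00593). Its other tested probe set, 1456089_at, rose by 0.96 ± 0.16 (limma adjusted p = 0.00418).

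Trim37 rose by 3 of its 4 tested probe sets. Probe set 1434554_at read 7.71, 7.59, 7.87 and 8.34 in Nix_KO 10, 2, 3 and 6, against 7.06, 6.76, 5.95 and 6.28 in WT 3, 4, 5 and 6, with no overlap and a change of 1.37 ± 0.26 (limma adjusted p = 0.00609). Probe set 1455012_s_at rose by 1.02 ± 0.21 (limma adjusted p = 0.00764), and 1436393_a_at, whose groups overlapped at WT 3, by 0.95 ± 0.31 (limma adjusted p = 0.0429), a call kept only without Nix_KO 10 or WT 3 among the 8 single-array omissions (limma adjusted p = 0.0626 to 0.114 in the other 6). The last, 1436394_at, differed by 0.34 ± 0.16 (limma adjusted p = 0.140).

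Among the falls outside the cluster, Trim7, known as a partner of glycogenin, read 7.70, 7.33, 7.35 and 7.15 in Nix_KO 10, 2, 3 and 6, against 8.71, 8.96, 8.94 and 8.78 in WT 3, 4, 5 and 6, by probe set 1439352_at. The groups lay about a full log2 unit apart and the change of -1.47 ± 0.16 had the smallest adjusted p of the family (limma adjusted p = 0.00185). It was -1.48 (limma adjusted p = 0.0476) without the 3 arrays with pancreatic signal. The second Trim7 probe set, near the filter level, differed by -0.70 ± 0.37 (limma adjusted p = 0.174).

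Trim35, first described in haematopoietic lineage switching, fell by 2 of 3 tested probe sets. Probe set 1454650_at read 10.36, 9.84, 9.90 and 10.32 in Nix_KO 10, 2, 3 and 6, against 11.02, 11.36, 11.13 and 11.27 in WT 3, 4, 5 and 6, a change of -1.09 ± 0.17 (limma adjusted p = 0.00343). Probe set 1429494_at fell by 1.32 on the log2 scale (SE 0.25, limma adjusted p = 0.006), and neither overlapped between the groups. The third, 1425621_at, with values from 2.63 to 5.06 in Nix_KO and 4.89 to 5.78 in WT, differed by -1.52 ± 0.55 (limma adjusted p = 0.0634), and passed without Nix_KO 10 (-1.85, limma adjusted p = 0.0307) or Nix_KO 6 (-1.92, limma adjusted p = 0.0246). As 3 of its 4 Nix_KO values lie under 5, its difference shrank to -0.38 (limma adjusted p = 0.168) with values under 5 set to 5.

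Trim14, a member without a RING finger that is known to join the antiviral adaptor Mavs at mitochondria, read 8.88, 7.85, 7.90 and 8.47 in Nix_KO 10, 2, 3 and 6, against 9.28, 9.64, 9.58 and 9.51 in WT 3, 4, 5 and 6. No arrays overlapped and the change was -1.22 ± 0.24 (limma adjusted p = 0.00612). Trim32, a ubiquitin ligase with NHL repeats known from muscle, fell by 1.18 (limma adjusted p = 0.00830). Trim45 fell by 1.04 (limma adjusted p = 0.00619), Trim47 by 1.01 (limma adjusted p = 0.00615), and Trim8, known to bind the cytokine signalling inhibitor Socs1, by 0.91 on the log2 scale (limma adjusted p = 0.00761).

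Smaller falls were those of Trim11 (-0.78 ± 0.18, limma adjusted p = 0.0111), Trim3 (-0.64 ± 0.20, limma adjusted p = 0.0359) and Trim26 (-0.55 ± 0.17, limma adjusted p = 0.0361). The calls of Trim3 and Trim26 were each kept in 3 of 8 single-array omissions and lost without Nix_KO 2 or 3 or WT 4, 5 or 6 (limma adjusted p from 0.0762 to 0.0959 for Trim3 and from 0.0604 to 0.102 for Trim26). A second Trim26 probe set differed by -0.24 ± 0.16 (limma adjusted p = 0.280).

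**Figure D5:**
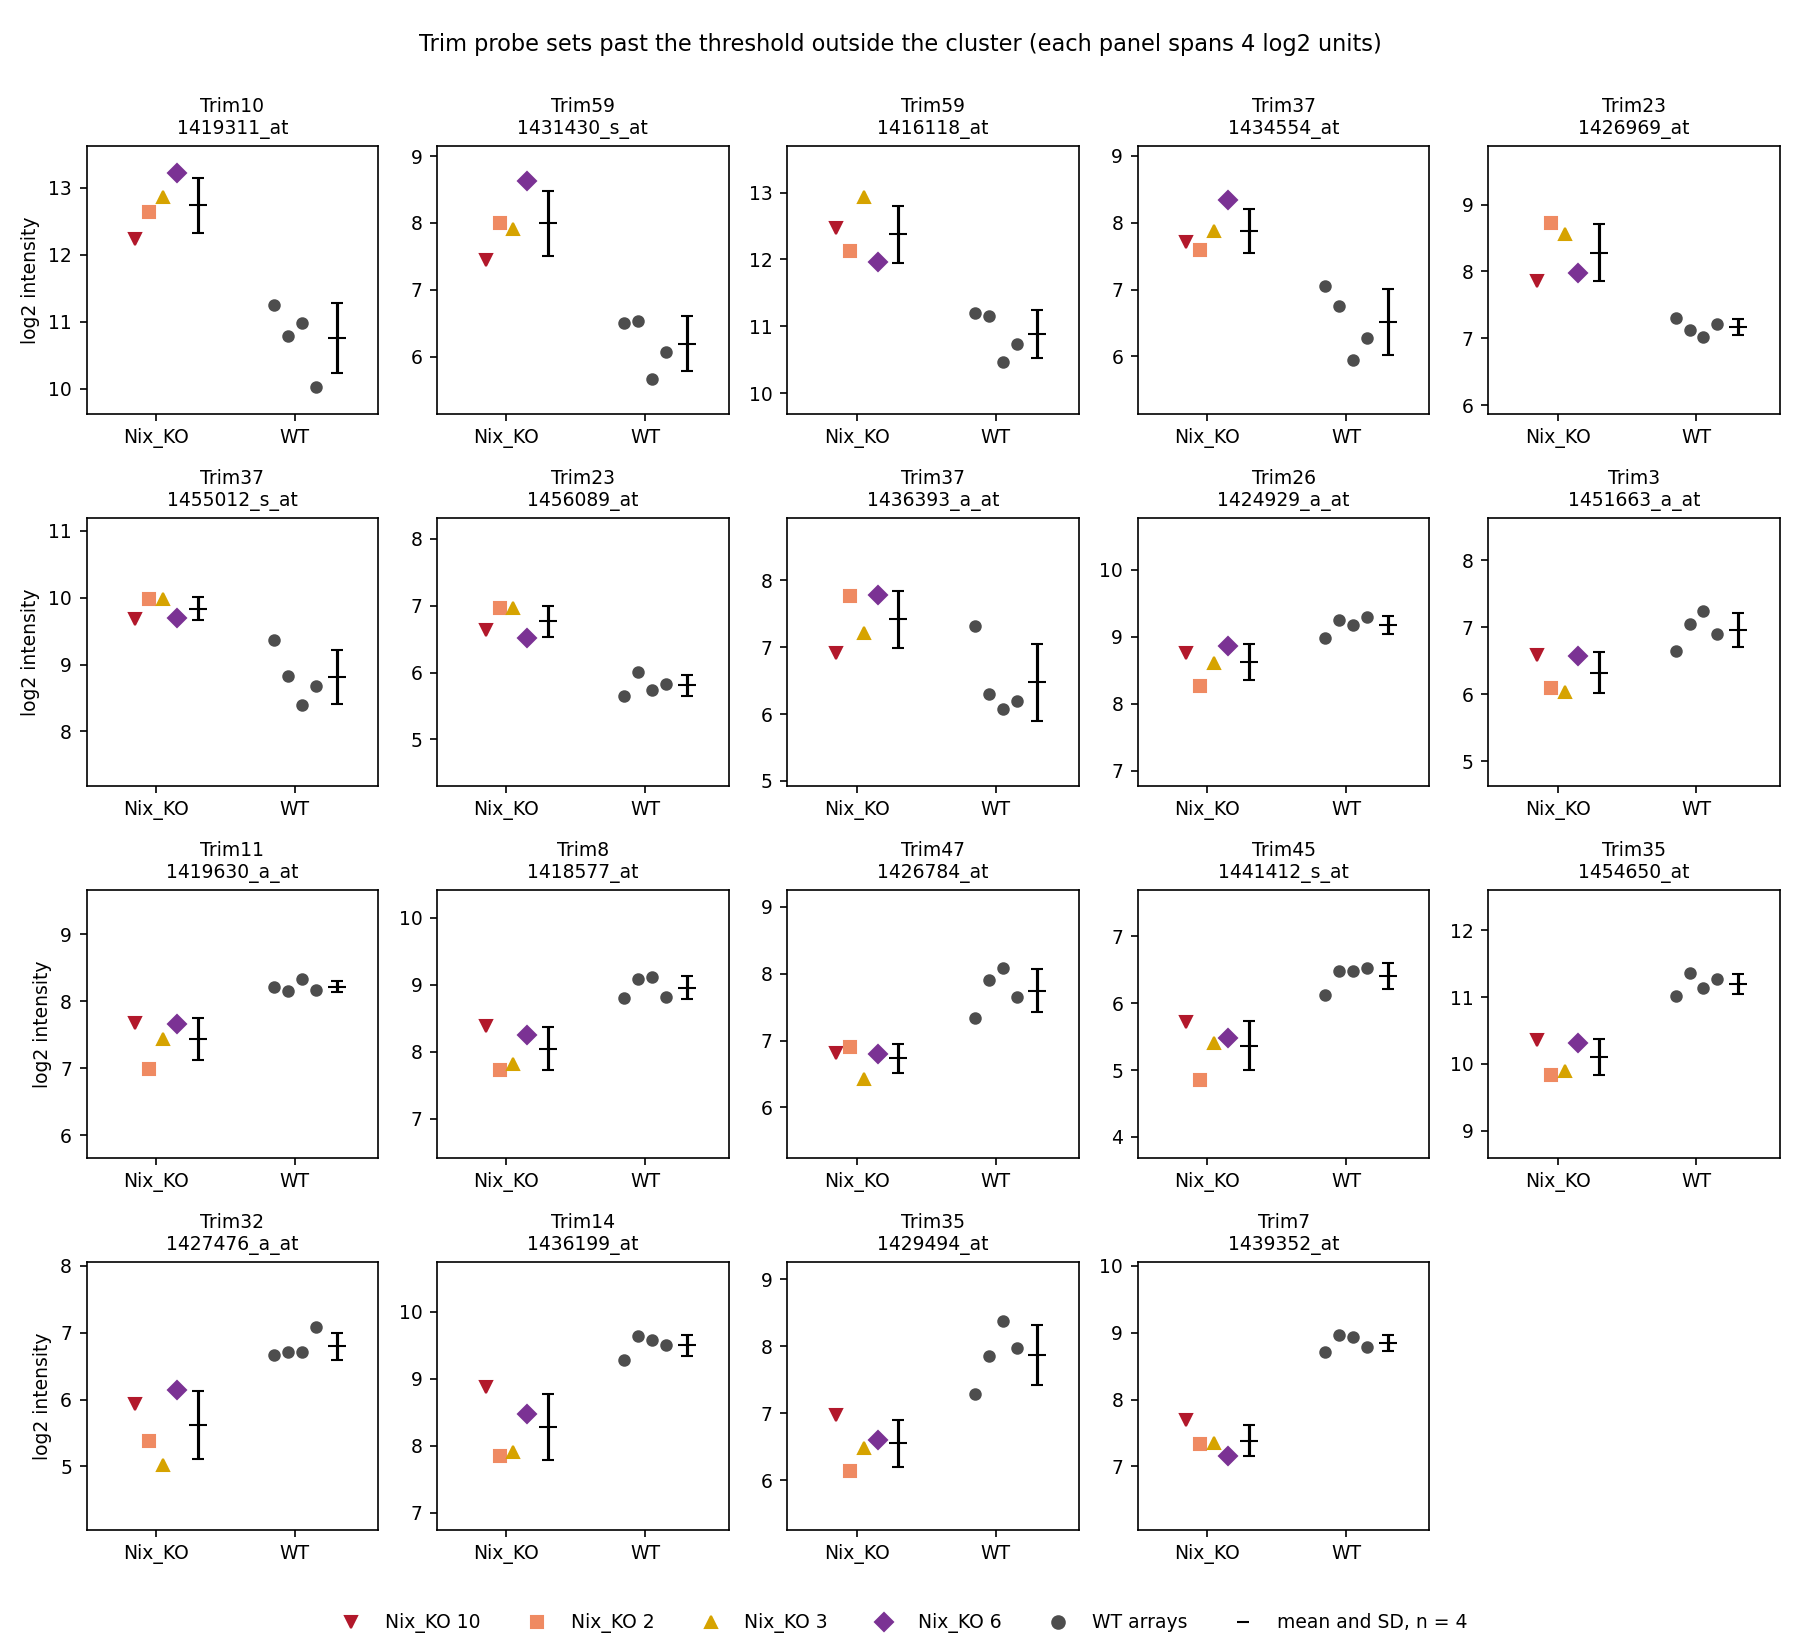
Log2 intensity (vertical axis, each panel spanning the same number of log2 units) of the 19 Trim probe sets past an adjusted p of 0.05 outside the cluster, ordered from the largest rise to the largest fall, with Nix_KO on the left and WT on the right of each panel and bars for the mean and SD of 4 arrays. In 18 of the 19 panels the groups do not overlap, Trim37 1436393_a_at being the exception, against 34.6% of all tested probe sets, but the panels were chosen by passing the test, which nearly fixes this count.

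By domain class, the tested probe sets of the PRY-SPRY class outside the cluster numbered 26, with 1 higher (3.85%, against 12.5% of all tested probe sets), 6 lower (23.1%, against 17.6%) and a median of -0.34. None of 5 tested probe sets of the transcriptional corepressors Trim24, Trim28 and Trim33 passed, their differences lying between -0.39 and 0.21, and neither did any of 2 of Trim36. Among the NHL-repeat members Trim2, Trim3 and Trim32, 2 of 6 were lower (33.3%). With so few probe sets per class, nothing is read from these counts beside the 12.5% higher and 17.6% lower of all. The muscle-expressed class of Trim54 and Trim63 had no tested probe set.

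The members described next were chosen after their values were seen, and did not pass except where stated. Trim25, which ubiquitinates the RNA sensor RIG-I, differed by -0.09, -0.03 and 0.14 by its 3 tested probe sets (limma adjusted p = 0.720, 0.869 and 0.510), with values of 9.91 to 10.52 in Nix_KO and 10.23 to 10.58 in WT by probe set 1425974_a_at. Trim21, a cytosolic antibody receptor, differed by -0.55 ± 0.31 and -0.23 ± 0.30 (limma adjusted p = 0.198 and 0.588). Trim27 differed by -0.02 to 0.09 over 4 probe sets, Trim56 by 0.09 and Trim65 by -0.50 (limma adjusted p = 0.0714), the last with groups that did not overlap and a pass without Nix_KO 10 (-0.61, limma adjusted p = 0.0434). Of the Trim genes nearest to Trim10 on chromosome 17, Trim26 was lower by 1 of 2 probe sets, as given above, Trim40 differed by 0.15 ± 0.13 (limma adjusted p = 0.422), and Trim15 and Trim31 were not tested. Trim39, farther off on that chromosome, differed by -0.60 ± 0.31 (limma adjusted p = 0.161). Neither Trim39 nor Trim40 overlapped between the groups.

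Probe sets of one gene were compared directly by fitting their difference. Of 27 such pairs in 19 Trim genes 0 passed by limma after adjustment over 7995 pairs, while 2.05% of all pairs did, and 6 of the 27 had an unadjusted p under 0.05. The pair with the smallest adjusted p was that of Trim37 (-0.68 ± 0.18, limma adjusted p = 0.0856). The Trim34a probe sets differed in their change by 2.93 ± 0.87 (limma adjusted p = 0.113), those of Trim30a by 0.67 ± 0.19 (limma adjusted p = 0.0999).

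Genes that share signalling with the family were taken from 2 lists. Of 20 tested interferon-induced genes, 4 were higher in Nix_KO, 6 were lower and 10 did not pass, beside 14.2% higher and 24.1% lower of all genes, with a median of -0.11 against -0.15 over all genes. Rsad2, encoding viperin, was 2.84-fold higher (limma adjusted p = 0.00127) and Ifit1 2.46-fold higher (limma adjusted p = 0.00906), followed by Ifih1 and Usp18. Lower were Cxcl10 (2.48-fold, limma adjusted p = 0.00578), Ddx58, which encodes RIG-I (2.24-fold, limma adjusted p = 0.00271), Zbp1, Gbp3, Gbp2 and Stat2.

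The interferon-induced list had means of 8.38, 8.27, 8.25 and 8.64 in Nix_KO 10, 2, 3 and 6. In WT 3, 4, 5 and 6 they were 8.58, 8.50, 8.09 and 8.77. Within WT this list and the Trim cluster mean shared the highest array, WT 6, and the lowest, WT 5. Within Nix_KO the list was highest in Nix_KO 6 and lowest in Nix_KO 3, where the cluster mean was highest. The part of interferon signalling in the cluster's array pattern was not tested. Of 16 tested ubiquitin and antiviral partners of Trim proteins, 1 was higher, 5 were lower and 10 did not pass, beside the same 14.2% and 24.1% of all genes, with a median of -0.07. The higher one was Tab3, an adaptor of the kinase Tak1, with 9.19, 9.31, 10.12 and 9.50 in Nix_KO 10, 2, 3 and 6 and 8.13, 7.71, 6.91 and 7.02 in WT 3, 4, 5 and 6, which is 4.24-fold (limma adjusted p = 0.0014). Tab2 differed by 0.04 ± 0.21 (limma adjusted p = 0.887).

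The lower partners were Ube2d1, a ubiquitin-conjugating enzyme (-1.36 ± 0.23, limma adjusted p = 0.00208), Irf3 (-0.77 ± 0.14, limma adjusted p = 0.003), Rnf135 (-0.90 ± 0.19, limma adjusted p = 0.00475), Ikbke (-0.75 ± 0.23, limma adjusted p = 0.0277) and Mid1. Mid1, a RING and B-box protein of the same architecture, read 8.18, 5.64, 7.93 and 3.52 in Nix_KO 10, 2, 3 and 6, against 9.37, 8.17, 8.92 and 9.48 in WT 3, 4, 5 and 6, a change of -2.67 ± 0.87 (limma adjusted p = 0.0335). Its spread lay in other arrays than that of the cluster, with Nix_KO 6 lowest and Nix_KO 10 level with WT 4.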

How the data were processed

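Spleen RNA of 4 Nix_KO and 4 WT mice was measured on 8 arrays. RNA from single spleens, extracted with Trizol and column-purified, was biotin-labelled without pooling, per the labels' protocols. The deposited table gives each probe set an intensity per array, on a linear scale, made with GCRMA per the submitters' processing notes (version not given in the sources used here). GCRMA corrects background, normalizes and summarises probes, and pulls dim probe sets to a common low level, so small intensities carry little information on size. Each array had 48.6% to 49.3% of probe sets at a log2 intensity of at least 5, and array medians were 28.8 to 30.6. The number of arrays limits the precision.

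The deposited intensities were log2-transformed with no offset. Of 45037 probe sets without 64 controls, 22347 were tested with limma 3.58.1 (lmFit, eBayes, two-sided) in R 4.3.3, adjusted by Benjamini-Hochberg over all of them. A separate fit of the same kind took each gene once by its brightest probe set with 1 symbol, adjusted over 11027 genes. Marker genes, neighbouring genes and genes of the 2 signalling lists have their adjusted p from that gene fit. Genes were named from the platform annotation, and all 60 Trim symbols were found in the RefSeq gene table (GRCm38.p6) and 49 had promoter windows. Figures were drawn with matplotlib 3.10.9. The fit was tested on simulated data. The genes named were Trim10, Trim58 and all cluster probe sets, up to 10 further rises and 10 falls past the threshold, the remaining family by class, the 10 most alike probe sets and the 10 nearest genes on each side. Trim members described beyond this rule, the 25 probe sets ranked by Nix_KO 10, and the examples from the 2 signalling lists were chosen after their values were seen. Members and lists were chosen with earlier results of these data known. Alternatives were other filters, median centring, quantile normalization, a floor at 5, array weights, a trended robust fit, omitted arrays and a replicate block. Counts over probe sets with 1 symbol, and the array pattern under both scalings, were added after seeing the data.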

Additional observations from a re-analysis of the deposited data

Results flagged for a closer look

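In 3 of 70 groups of 4 arrays looked at, 1 array stood apart from the other 3 by Dixon's criterion for groups of this size, and chance gives about 1 in 20 groups. The Trim32 probe set 1427476_a_at read 7.09 in WT 6, against a mean of 6.70 in the other WT arrays. The Trim45 probe set 1441412_s_at read 6.12 in WT 3, against 6.5 in the other WT arrays. The Trim37 probe set 1436394_at read 7.01 in WT 3, against 6.71 in the other WT arrays. None of these is a Nix_KO array, and Nix_KO 10 did not meet the criterion for any cluster probe set.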

How the results depend on the processing

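Without the 3 arrays with pancreatic signal, 1 Trim probe set was higher and 3 were lower in Nix_KO, against 500 and 190 of all probe sets; the reduced fit had 5 arrays. Leaving out 1 array gave 7 to 8 higher and 12 to 21 lower Trim probe sets, and 1889 to 2772 higher and 2096 to 4221 lower of all. The 12 lower Trim probe sets arose without WT 4 and without WT 6, where 2096 and 2107 of all were lower, and without WT 5 it was 2529. Cluster probe sets called lower numbered 2 without the 3 arrays with pancreatic signal, 3 without WT 4 or WT 6, 5 without Nix_KO 2 or WT 3, 4 with no filter, 9 with a floor at 5 and 10 with array weights, against 8 in the reported fit. Median centring moved the median change of all probe sets from -0.12 to 0.00 and gave 3377 higher and 3073 lower (52.4% of calls higher, against 41.6% as reported), with 8 Trim probe sets higher and 17 lower; quantile normalization gave 3161 and 3406 (48.1%), with 8 and 18. Nix_KO 10 was lowest in 7 of the 11 cluster probe sets with centring and in 6 with quantile normalization.

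Only replicate numbers 3 and 6 occur in both genotypes, and no pairing is stated. The deviations of same-numbered arrays correlated by 0.25 and 0.15. Differently numbered arrays were not compared, so these values do not decide whether the arrays were paired. With the replicate block on these 4 arrays the limma fit called 0 Trim probe sets in either direction (24 at an unadjusted p under 0.05), and 0 higher and 1 lower of all. The difference of Trim12c, which did not pass, was -0.18 with the replicate block and -0.05 without Nix_KO 10, in place of 0.09, and reached 0.18 without Nix_KO 3. Of the other comparisons of single Trim probe sets with these alternatives, 475 kept direction and side of the threshold, 98 lost the call and 10 gained one.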
